A study of Homo sapiens with 6 samples.

Results

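The Hippo pathway genes followed here are YAP1, WWTR1, TEAD1, TEAD4, CCN1, CCN2, ANKRD1, AMOTL2, LATS2 and AJUBA. They were chosen by name as the coactivators, the DNA-binding partners and the direct targets of the pathway. All 10 were found among the 38637 genes of the deposited table, under these symbols, and all 10 entered the test, which took the 13980 genes averaging 1 TPM or more. The RNA came from HCCLM3-SR, a sorafenib-resistant line that the study derived from the human hepatocellular carcinoma (HCC) line HCCLM3 by raising the dose of sorafenib, a multikinase inhibitor. Cells of 3 libraries were transfected with siRNA against the circular RNA cDCBLD2 and cells of 3 libraries with control siRNA (siCTRL), for 3 days, and both groups were kept in 5 µM sorafenib. Sorafenib is therefore shared by both groups, and its own effect on these genes was not measured. The labels do not say whether the libraries came from separate cultures, so the p-values measure the spread between these libraries, which may be technical.

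The Hippo pathway is a kinase cascade that holds back growth. The kinases STK3 and STK4 activate LATS1 and LATS2, which phosphorylate the coactivators YAP1 and TAZ (the product of WWTR1) and keep them out of the nucleus. When the cascade is quiet, YAP1 and TAZ enter the nucleus, bind the TEAD transcription factors and switch on genes such as CCN1, CCN2 and ANKRD1. LATS2 and AMOTL2 are themselves induced and feed back on the coactivators. In the liver the pathway is known for setting organ size, and an active YAP1 is common in liver cancer. Phosphorylation and nuclear entry are not read by RNA levels.

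The DNA word bound by the TEAD factors is the link between the effectors and their targets, and its place in the members' promoters is shown for that reason. The word searched was GGAATG, or CATTCC where the site lies on the other strand, from 250 bases before to 50 bases after the start site in the RefSeq promoters of GRCh38.p14. Promoter sequences were at hand for 7 members and not for CCN1, TEAD1 and TEAD4. The 7 members had 10 promoter sequences, since some have more than 1 start site, and 6 of these 10 sequences, from 6 members, held the word. Among all 35116 promoters, 14.0% held it and 1.37% held it 2 or more times, and of the 15006 promoters of genes tested 11.7% held it. CCN2 held it 3 times and ANKRD1 held it 2 times. WWTR1 held it in neither of its promoters. The windows below run 5′ to 3′ along the strand of the gene, with the TEAD word in capitals.
CCN2, chr6:131951524-131951553, minus strand: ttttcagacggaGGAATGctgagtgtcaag
CCN2, chr6:131951459-131951488, minus strand: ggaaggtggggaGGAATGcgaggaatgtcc
ANKRD1, chr10:90921290-90921319, minus strand: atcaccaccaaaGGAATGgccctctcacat
ANKRD1, chr10:90921198-90921227, minus strand: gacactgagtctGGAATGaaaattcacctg
AMOTL2, chr3:134374499-134374528, minus strand: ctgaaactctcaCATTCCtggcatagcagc
AJUBA, chr14:22976884-22976913, minus strand: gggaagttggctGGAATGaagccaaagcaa
YAP1, chr11:102110273-102110302, plus strand: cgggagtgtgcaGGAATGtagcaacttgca
LATS2, chr13:21061560-21061589, minus strand: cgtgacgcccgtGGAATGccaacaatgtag
The second CCN2 window holds a further copy of the word in lower case, downstream of the capitals, which is the last of the CCN2 sites. Counted from the start site of the RefSeq promoter, the word began at -169, -104 and -95 in CCN2 and at -220 and -128 in ANKRD1. It began at -69 in AMOTL2, at -59 in AJUBA, at -162 in YAP1 and at 10 in LATS2. By the gene ends given below, the -128 word of ANKRD1 and the words of AMOTL2 and AJUBA lie inside their genes. The LATS2 word lies upstream of LATS2 by the same ends. AMOTL2 and AJUBA held the word only in the promoter further downstream. For 8 of the 10 promoter sequences, bases 11 to 40 after the start were read in a transcript of the gene. A match is only a match of letters, and binding was not measured.

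Between 17487706 and 23057424 reads per library were recovered from the ratios of the TPM values, with the fewest in replicate 1 of both groups. TPM divides the reads of a gene by its length and scales each library to 1000000, so levels of different genes can be compared. DCBLD2, the host gene of the targeted circle, lay between 25.9 and 58.1 TPM after knockdown and between 48.5 and 71.5 TPM in control cells. Its log2 fold change was -0.61 (limma adjusted p = 0.253, or 0.0139 when blocked by replicate). The libraries were PolyA-Seq and a closed circle has no poly(A) tail, so these values should come mainly from the linear mRNA. The level of the circle itself was not measured in these libraries. The epithelial keratin KRT8 lay between 3644 and 4413 TPM after knockdown and between 2999 and 3408 TPM in control cells (limma adjusted p = 0.126, or 0.00669 when blocked by replicate). The hepatocyte factor HNF4A lay between 27.0 and 31.3 TPM after knockdown and between 22.9 and 23.7 TPM in control cells (limma adjusted p = 0.0949, or 0.0196 when blocked by replicate). The summed level of the epithelial markers ran from 5861 to 7006 TPM after knockdown and from 4855 to 5657 TPM in control cells, and that of the 7 hepatocyte and HCC markers from 33.8 to 37.6 TPM and from 27.7 to 28.2 TPM. Both sums were higher in every knockdown library, but most of the first was KRT8 and KRT18 and most of the second was HNF4A. The hepatocyte products ALB and AFP did not exceed 1.58 and 2.08 TPM. ALB and EPCAM went the other way, with means of 0.61 and 0.13 TPM after knockdown against 1.11 and 0.19 TPM. ALB was lower in all 3 pairs. The other markers of both lists had higher means after knockdown. Among these the groups overlapped for CDH1, KRT18, APOA1, SERPINA1, AFP and GPC3, and not for KRT8, HNF4A and TTR. Of 9 markers of blood, endothelial and stromal cells, 4 had a mean of at least 1 TPM and CD3E was at 0 in all libraries. Their summed level ran from 116 to 136 TPM after knockdown and from 98.3 to 120 TPM in control cells. Most of it was CD68, from 96.1 to 125 TPM after knockdown and from 90.0 to 111 TPM in control cells. The collagens COL1A1 and COL3A1 had higher values after knockdown, with means of 6.16 and 2.37 TPM against 2.21 and 0.60 TPM. PECAM1 and DCN had means of 4.70 and 0.16 TPM against 4.56 and 0.15 TPM. Those of PTPRC and VWF were lower after knockdown, at 0.34 and 0.03 TPM against 0.37 and 0.05 TPM. LYVE1 had a mean of 0.03 TPM against 0 TPM. The part of these markers in the results below was not tested. In bulk RNA, fewer cells of a type and less RNA per cell cannot be told apart.

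Same-numbered libraries shared their departures from the group means. The replicate number was therefore also used as a block, and members are given with both fits, without and with this replicate block. For 7 of the 10 members, replicate 1 had the highest level in both groups, as for 38.9% of all genes tested. These 7 were YAP1, WWTR1, TEAD1, TEAD4, CCN1, ANKRD1 and AMOTL2.

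In control cells the coactivator WWTR1 was the most abundant member at 90.0 ± 2.24 TPM (SD, n = 3). YAP1 and TEAD4 followed at 46.5 ± 3.94 and 45.6 ± 4.86 TPM, and their ranges overlapped. TEAD1 and AJUBA came next at 24.5 ± 3.26 and 21.0 ± 2.67 TPM, again with overlapping ranges. CCN2 stood at 16.9 ± 0.642 TPM, and its range met that of CCN1 at 12.1 ± 3.89 TPM, which overlapped in turn with that of AMOTL2 at 11.9 ± 2.67 TPM. LATS2 at 3.98 ± 0.474 TPM and ANKRD1 at 2.095 ± 0.580 TPM were lowest, and their control ranges did not overlap. After knockdown the order changed near the top and in the middle. YAP1, above TEAD4 in 2 of 3 control libraries, was above it in 0 of 3 knockdown libraries, with overlapping ranges. TEAD1, above AJUBA in 3 of 3 control libraries, was above it in 0 of 3 knockdown libraries. The plot of levels by library shows all 10 genes.

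**Figure D1:**
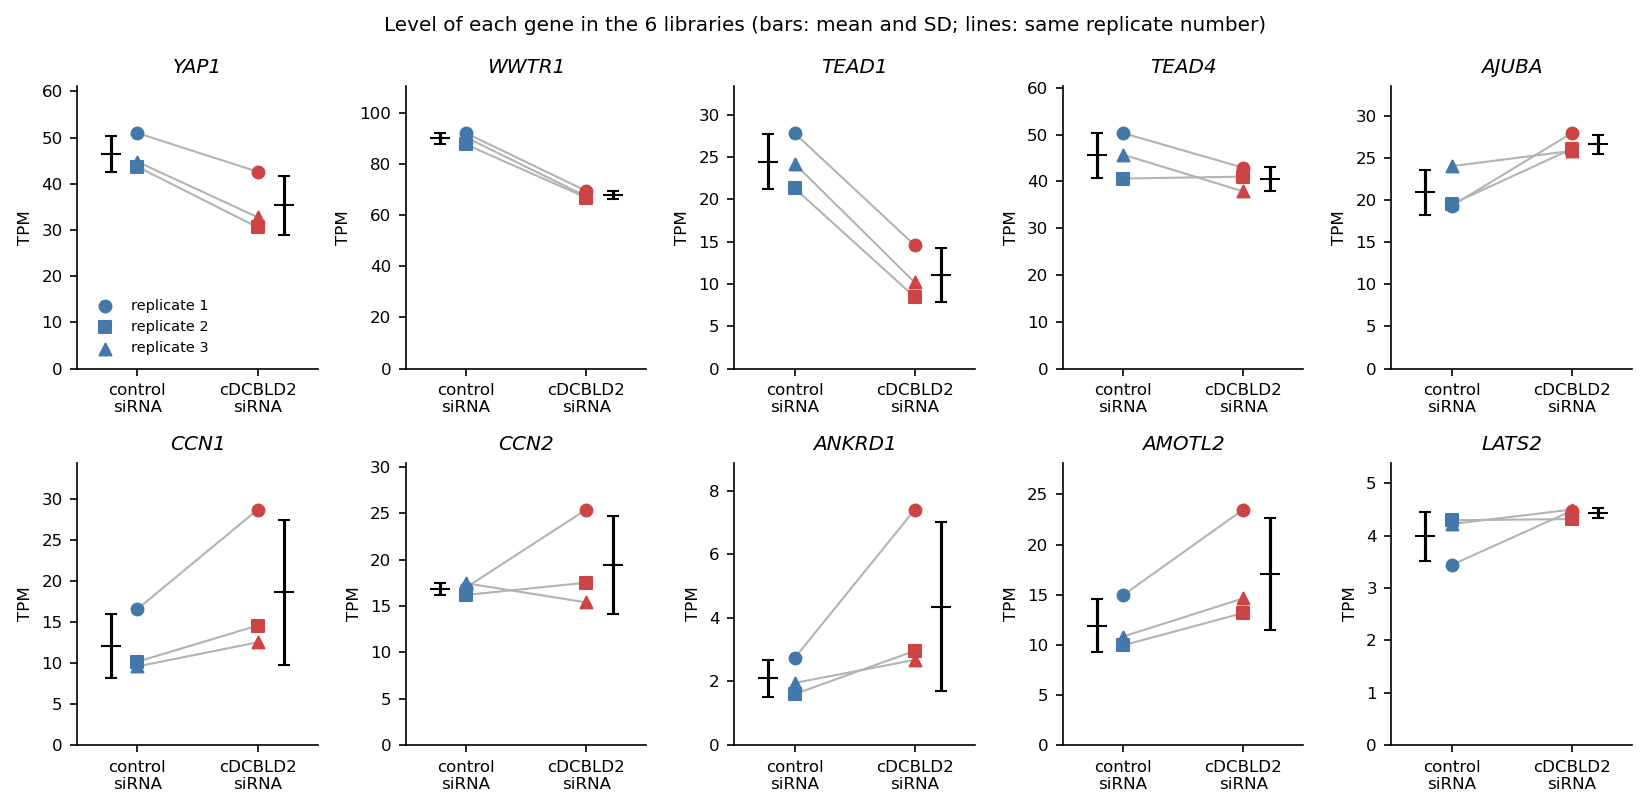
Level in TPM (linear axis from 0) of each of the 10 genes in the 3 control and 3 cDCBLD2 knockdown libraries; grey lines join libraries of the same replicate number, and black bars give the mean and SD of each group. YAP1, WWTR1 and TEAD1 lie lower in all 3 knockdown libraries than in any control library, while CCN1, ANKRD1 and AMOTL2 are higher in each pair and highest in replicate 1.

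Both coactivators had lower mRNA levels after cDCBLD2 knockdown. WWTR1 encodes TAZ and lies on chromosome 3 (GRCh38) between 149517235 and 149736714, minus strand. It was at 69.4, 66.8 and 67.3 TPM with si-cDCBLD2 (replicates 1, 2 and 3) against 92.0, 87.6 and 90.4 TPM with siCTRL. The groups were far apart and each was narrow, and WWTR1 fell by 0.40 on the log2(TPM + 1) scale (standard error 0.06, limma adjusted p = 0.0466 over 13980 genes, and 0.00503 with the replicate block). The knockdown mean was 0.754 of the control mean. This call without the block was lost, with a limma adjusted p between 0.15 and 0.222, when any library other than knockdown replicate 1 was left out, and it was 0.0151 without that library.

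YAP1 lies on chromosome 11 from 102110461 to 102233423 on the plus strand. It stood at 42.6, 30.6 and 32.8 TPM with si-cDCBLD2 against 51.0, 43.7 and 44.8 TPM with siCTRL. Replicate 1 was the highest library of both groups, and its knockdown value lay just under the lowest control value. The difference on the log2 scale was -0.40 (standard error 0.14, limma adjusted p = 0.139), and YAP1 passed with the replicate block but not without it (standard error 0.07, limma adjusted p = 0.0105). Its mean ratio of 0.760 was close to that of WWTR1. Within libraries, the ratio of WWTR1 to YAP1 was 1.63, 2.19 and 2.05 after knockdown and 1.80, 2.004 and 2.02 in control cells. The ratio differed between groups by less than the spread between replicates (log2 difference 0.000486, two-sided exact permutation test, p = 1, where 0.1 is the smallest p that 3 against 3 libraries allow).

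TEAD1 had the largest log2 fold change in size of the 10 members in the fits without and with the block. It encodes a TEAD factor that carries YAP1 and TAZ to DNA, on chromosome 11 from 12674591 to 12944483 on the plus strand. It was at 14.6, 8.45 and 10.2 TPM with si-cDCBLD2 against 27.8, 21.3 and 24.2 TPM with siCTRL, from 750 to 1829 recovered reads per library. Every knockdown library lay well below every control library, and the control mean was 2.21 times the knockdown mean. The log2 fold change of -1.10 (standard error 0.20) just missed the threshold without the block (limma adjusted p = 0.057) and passed it with the replicate block (standard error 0.09, limma adjusted p = 0.00436). Only 77 of the 13980 genes tested had a lower log2 fold change. Within pairs the change was -0.89, -1.24 and -1.18.

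TEAD4 encodes another TEAD factor and lies on chromosome 12 from 2959330 to 3040673 on the plus strand. It was at 42.9, 41.0 and 37.9 TPM after knockdown and at 50.3, 40.6 and 45.7 TPM in control cells, so the groups overlapped. Its log2 fold change was -0.16 (95% interval -0.40 to 0.08, limma adjusted p = 0.352, or 0.136 when blocked by replicate). The ratio of the TEAD4 to the TEAD1 level was higher in every knockdown library. The TEAD4 level was 2.95, 4.85 and 3.72 times that of TEAD1 in knockdown replicates 1, 2 and 3 and 1.81, 1.90 and 1.89 times in the control replicates. The control ratios were nearly the same in all libraries, and all knockdown ratios lay above them (log2 difference 1.01, two-sided exact permutation, p = 0.1, which is the lowest possible). TEAD1 transcripts have a GC content of 41.3% and TEAD4 transcripts one of 60.4%. With the GC trend of every library removed, an alternative chosen after seeing the data, the difference of their log2 fold changes was 0.49.

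CCN1, ANKRD1 and AMOTL2, all YAP1 targets, had higher values after knockdown in each of the 3 pairs. CCN1 (formerly CYR61) encodes a secreted matricellular protein and lies on chromosome 1 from 85580761 to 85583962 on the plus strand. It was at 28.7, 14.6 and 12.5 TPM with si-cDCBLD2 against 16.6, 10.2 and 9.59 TPM with siCTRL. Control replicate 1 was above knockdown replicates 2 and 3, so the groups overlapped although every pair was higher after knockdown. CCN1 differed by 0.53 on the log2 scale (standard error 0.34, limma adjusted p = 0.356), and blocking by replicate narrowed the standard error to 0.10 (limma adjusted p = 0.0131). Within pairs the change was 0.76, 0.48 and 0.35.

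ANKRD1 encodes an ankyrin repeat protein of the nucleus and the sarcomere, and is a standard readout of YAP1 and TAZ. It lies on chromosome 10 from 90912096 to 90921276 on the minus strand. It was at 7.41, 2.96 and 2.68 TPM after knockdown and at 2.73, 1.60 and 1.95 TPM in control cells. These values rest on few reads, from 23 to 92 per library. The 95% Poisson interval, which covers counting error only, ran from 5.97 to 9.09 TPM in knockdown replicate 1 and from 1.88 to 3.84 TPM in control replicate 1. The mean ratio was 2.08, and the difference on the log2 scale was 0.70 (standard error 0.34, limma adjusted p = 0.241, or 0.0352 when blocked by replicate). Knockdown replicate 1 decided much of this size, since without it ANKRD1 was at 0.32 (limma adjusted p = 0.25). With replicate pair 1 left out, and no block, ANKRD1 was at 0.46 and was not called (limma adjusted p = 0.0514).

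AMOTL2, an angiomotin family protein that binds YAP1 and keeps it in the cytoplasm, lies on chromosome 3 from 134355874 to 134375479 on the minus strand. Its levels were 23.5, 13.2 and 14.6 TPM after knockdown and 14.9, 9.94 and 10.8 TPM in control cells. As for CCN1, control replicate 1 exceeded knockdown replicates 2 and 3. The difference on the log2 scale was 0.47 (standard error 0.24, limma adjusted p = 0.27, or 0.0114 when blocked by replicate). The pairs gave 0.62, 0.37 and 0.40. Without knockdown replicate 1 the fits without the block gave 0.19 for CCN1 (limma adjusted p = 0.587) and 0.23 for AMOTL2 (limma adjusted p = 0.376).

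CCN2 and LATS2 did not pass in any fit. CCN2 (formerly CTGF), a secreted relative of CCN1 that promotes fibrosis, lies on chromosome 6 from 131948176 to 131951373 on the minus strand. It was at 25.4, 17.5 and 15.4 TPM after knockdown and at 17.0, 16.2 and 17.5 TPM in control cells. Only knockdown replicate 1 stood clearly above the controls, and knockdown replicate 3 lay below all of them. The difference on the log2 scale was 0.16 (95% interval -0.27 to 0.59, limma adjusted p = 0.593, or 0.405 when blocked by replicate), and it was -0.04 without knockdown replicate 1. The ratio of CCN2 to CCN1 was 0.884, 1.202 and 1.23 after knockdown and 1.02, 1.59 and 1.82 in control cells, and was lower after knockdown in each pair. The groups of this ratio overlapped (log2 difference -0.40, two-sided exact permutation test, p = 0.3).

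LATS2, the kinase that phosphorylates YAP1 and TAZ and is also their target, lies on chromosome 13 from 20973032 to 21061547 on the minus strand. It stood at 4.48, 4.32 and 4.50 TPM after knockdown and at 3.44, 4.29 and 4.22 TPM in control cells. The lowest knockdown library lay only just above the highest control library, and the difference on the log2 scale was 0.13 (95% interval -0.16 to 0.42, limma adjusted p = 0.527, or 0.397 when blocked by replicate).

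AJUBA, a LIM domain scaffold that binds LATS kinases and restrains them, lies on chromosome 14 from 22971174 to 22982642 on the minus strand. It was at 28.0, 26.1 and 25.9 TPM with si-cDCBLD2 against 19.3, 19.5 and 24.0 TPM with siCTRL. All knockdown libraries were above all control libraries, with control replicate 3 the closest. The mean ratio was 1.27 and the difference on the log2 scale was 0.34 (standard error 0.11, limma adjusted p = 0.12, or 0.039 when blocked by replicate). AJUBA was at 0.25 and was not called with replicate pair 1 left out and no block (limma adjusted p = 0.123).

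Without the block, limma called 0 members higher and 1 lower (WWTR1), beside 0.250% of all genes called higher and 0.629% called lower, 0.880% in all. At an unadjusted p under 0.05 the same fit had 4 members, beside 3654 of 13980 genes, and limma-voom on the recovered reads called 0 higher and 1 lower (TEAD1). With the replicate block, limma called 4 members higher (CCN1, ANKRD1, AMOTL2 and AJUBA) and 3 lower (YAP1, WWTR1 and TEAD1). The shares over all genes in that fit were 9.94% higher and 25.0% lower, 35.0% in all. TEAD1 was the only member past an adjusted p of 0.05 with a log2 fold change over 1 in size in that fit, as were 1.21% of genes, and 0 members passed both thresholds without the block, beside 0.129% of genes. The median log2 fold change was 0.15 over the 10 members and -0.08 over all genes tested. The groups did not overlap for 2 members that were higher after knockdown (LATS2 and AJUBA) and 3 that were lower, as for 9.58% and 22.3% of genes, 31.9% in all. The change had the same direction in all 3 pairs for 8 of the 10 members (not TEAD4 and CCN2), as for 65.6% of genes.

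**Figure D2:**
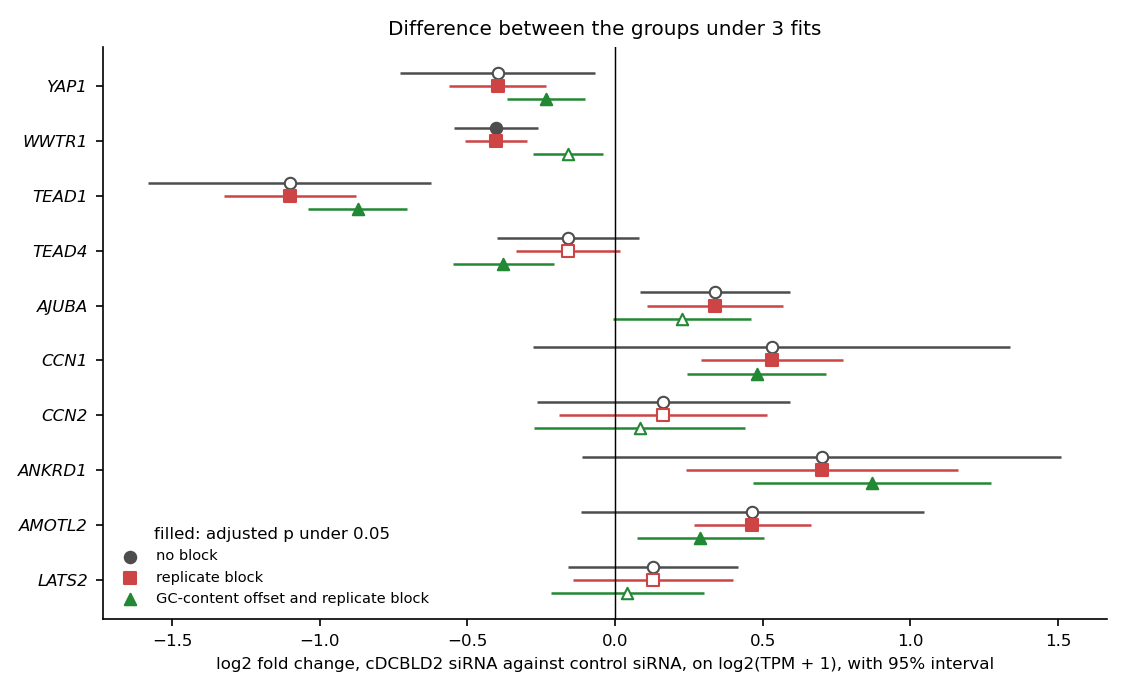
log2 fold change of each gene on log2(TPM + 1), knockdown against control, with its 95% interval, in the limma fit without a block (grey), with the replicate block (red) and with the replicate block with the GC trend of every library removed (green); filled symbols have an adjusted p under 0.05. The 4 genes YAP1, WWTR1, TEAD1 and TEAD4 lie left of 0 and the other 6 genes right of it in all 3 fits.

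Across all genes the log2 fold change rose with the GC content of the transcript (Spearman's rho 0.64 over 13161 genes, which share the same libraries and are not independent). The genes were split into quintiles by GC content, and the lowest quintile had a median of -0.40 and the highest one of 0.11. WWTR1 (40.9% GC) and TEAD1 (41.3%) belong to the lowest quintile and YAP1 (43.5%) and ANKRD1 (43.3%) to the next. WWTR1 lay in the middle of its quintile, with 50.1% of those genes lower. For YAP1 28.3% of its quintile was lower and for TEAD1 1.37%. ANKRD1 lay at the other end of the same quintile as YAP1, with 99.2% of genes lower. CCN1 (50.3% GC) was above 97.9% of quintile 3, AMOTL2 (56.7%) above 94.7% of quintile 4, and TEAD4 above 8.09% of the highest quintile.

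Removing the GC trend of each library changed some of these calls. TEAD1 was then at -0.87 (standard error 0.13, limma adjusted p = 0.0468, or 0.00476 when blocked by replicate) and was the only member called without the block, beside 0.152% of genes called higher and 0.843% lower, 0.995% in all. WWTR1 shrank to -0.16 and was not called (limma adjusted p = 0.298, or 0.051 when blocked by replicate). YAP1 was at -0.23 (limma adjusted p = 0.19, or 0.0241 when blocked by replicate). TEAD4 moved to -0.38 and passed with the replicate block (limma adjusted p = 0.173, and 0.0137 with it). Among the targets, ANKRD1 was at 0.87 and CCN1 at 0.48, and both passed with the replicate block (limma adjusted p = 0.0143 and 0.0166). AMOTL2 at 0.29 was at the threshold (limma adjusted p = 0.0498 with the replicate block), and AJUBA at 0.23 did not pass (limma adjusted p = 0.113 with the block). With the offset and the block, 3 members were called higher and 3 lower, beside 5.86% and 29.2% of genes, 35.0% in all. No member passed both thresholds with the offset (0 of 10, without or with the block), as 0.0912% and 0.653% of genes did. Whether the GC trend came from the libraries or from the cells cannot be told apart here.

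**Figure D3:**
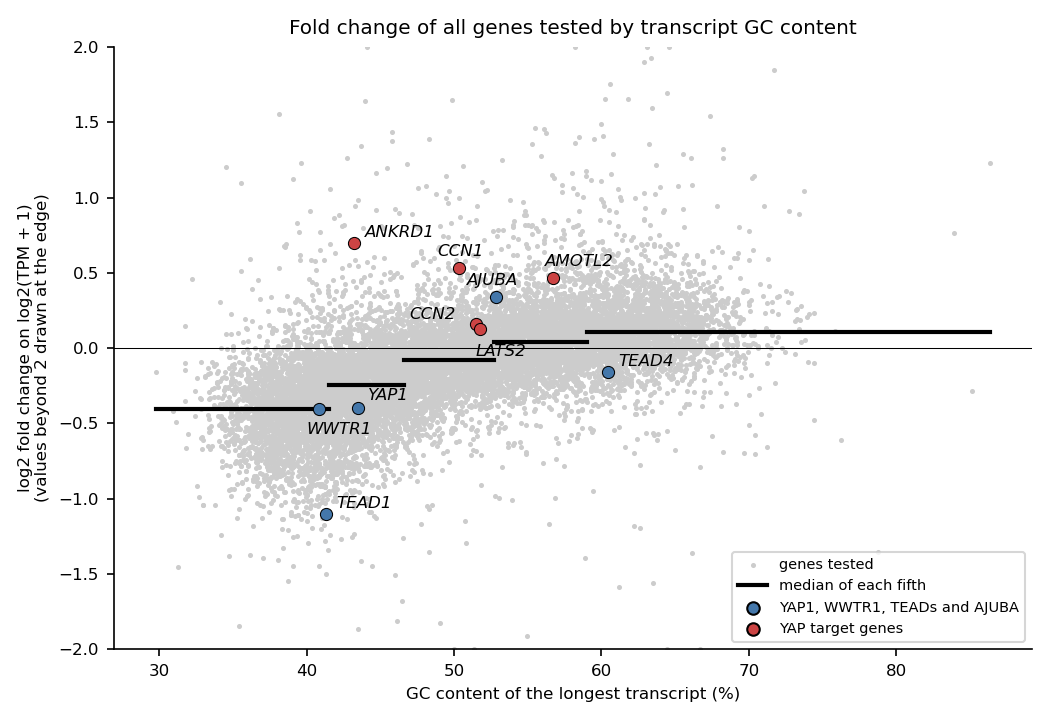
log2 fold change of the genes tested that have a GC content (grey points) against the GC content in percent of the longest transcript, with the median of each quintile of genes by GC content (black lines) and the 10 members (coloured). TEAD1 lies far below the median of its quintile and WWTR1 on it, while ANKRD1, CCN1 and AMOTL2 lie above most genes of like GC content.

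The other genes of the pathway were taken from 5 lists of 47 genes, of which 38 passed the filter on low values. Without the block 0 of the 38 were called, beside 0.880% of all genes. At an unadjusted p under 0.05 that fit had 17 of the 38, beside 3654 of 13980 genes. Limma-voom on recovered reads, whose filter kept 41, called 2 higher and 0 lower. Its calls over all genes are given in the last section. With the replicate block 4 were higher and 15 lower, which are 10.5% and 39.5% of the 38 beside 9.94% and 25.0% of all genes. The median log2 fold change of the 38 was -0.12.

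The kinase cassette holds the pathway's core kinases and their scaffolds. With the replicate block 7 of the 12 genes tested fell and 0 rose, beside 25.0% and 9.94% of all genes, with a median log2 fold change of -0.41. TAOK1, a kinase that activates STK3 and STK4, had means of 20.1 ± 3.31 TPM in control and 10.4 ± 4.63 TPM in knockdown cells (SD, n = 3), a log2 fold change of -0.95 (limma adjusted p = 0.112, and 0.00809 with the block). MOB1A and MOB1B, the coactivators of the LATS kinases, had log2 fold changes of -0.54 and -0.53, and LATS1 one of -0.46 (limma adjusted p from 0.105 to 0.217 without the block and from 0.00521 to 0.0359 with it). MAP4K4, the most abundant of the list at 63.0 TPM, had one of -0.12 and did not pass. With the GC-content offset and the block, 4 of the 12 were lower (TAOK1, MOB1A, STK4 and WWC2), which is 33.3% of the list beside 29.2% of all genes, and the median was -0.14 beside -0.12 over all genes. LATS1 and MOB1B were no longer called in that fit (limma adjusted p = 0.125 and 0.317).

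STRIPAK is the phosphatase complex that switches STK3 and STK4 off. Its subunits STRN, SLMAP and STRN3 fell with the replicate block, by 0.83, 0.74 and 0.71 on the log2 scale (limma adjusted p = 0.00653, 0.00669 and 0.0227, against 0.0892, 0.103 and 0.137 without the block). These 3 genes were also called lower with the GC-content offset and the block, at smaller log2 fold changes of -0.52, -0.46 and -0.46 (limma adjusted p = 0.00905, 0.00832 and 0.0444). STRN4, the most abundant gene of that list at 126 TPM, was at 0.07 and did not pass with the block (limma adjusted p = 0.238), while with the GC-content offset and the block it was at -0.18 (limma adjusted p = 0.0236). So the genes called lower with the block included both activators of the cascade and subunits of the complex that opposes it.

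VGLL4, which competes with YAP1 for the TEAD factors, was the only gene called with the block among 4 other TEAD and VGLL genes. In that fit 9.94% of all genes were called higher and 25.0% lower. VGLL4 was at 65.5, 58.7 and 57.6 TPM after knockdown and at 45.4, 48.6 and 50.4 TPM in control cells. All knockdown libraries were higher, and VGLL4 differed by 0.32 on the log2 scale (limma adjusted p = 0.0849, or 0.0242 when blocked by replicate). With the GC-content offset and the block VGLL4 was not called (limma adjusted p = 0.0723), and TEAD2 was called lower at -0.19 (limma adjusted p = 0.0262), a gene named after its values were seen. The shares of all genes called there were 5.86% higher and 29.2% lower. Of the 2 other CCN genes tested, CCN5 had a log2 fold change of 0.61 (limma adjusted p = 0.277, and 0.0215 with the block), at means of 1.88 and 0.86 TPM and from as few as 5 recovered reads. With the GC-content offset and the block CCN5 was at 0.37 and was not called (limma adjusted p = 0.0532).

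A list of 17 further YAP target genes did not move in a single direction. Of the 14 genes tested, 2 rose and 5 fell with the replicate block, which are 14.3% and 35.7% of the list beside 9.94% and 25.0% of all genes, and the median log2 fold change was -0.17. With the GC-content offset and the block 4 were called higher and 6 lower, 28.6% and 42.9% beside 5.86% and 29.2% of all genes, with F3 and CCDC80 added to the higher genes. F3 and CCDC80 were named after their values were seen. IGFBP3, a secreted binding protein of insulin-like growth factors, was at 3.40, 1.73 and 3.47 TPM after knockdown and at 0.51, 0.95 and 0.71 TPM in control cells. The groups did not overlap, and the difference on the log2 scale was 1.14 (limma adjusted p = 0.0655, and 0.0179 with the block), from as few as 9 reads. AXL, a receptor tyrosine kinase, had means of 49.3 ± 1.43 TPM in control and 69.1 ± 5.12 TPM in knockdown cells (SD, n = 3), a log2 fold change of 0.48 (limma adjusted p = 0.0526, and 0.00541 with the block). ASAP1, DOCK5, PTPN14 and CRIM1 fell with the block, with log2 fold changes of -0.60, -0.57, -0.51 and -0.31 (limma adjusted p from 0.0723 to 0.155 without the block and from 0.0054 to 0.0195 with it). PTPN14 encodes a phosphatase that holds YAP1 in the cytoplasm. GADD45A, a stress sensor and the most abundant gene of the list at 132 TPM, was at -0.12 and did not pass with the block (limma adjusted p = 0.165), but was called lower with the GC-content offset and the block (-0.20, limma adjusted p = 0.0293).

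**Figure D4:**
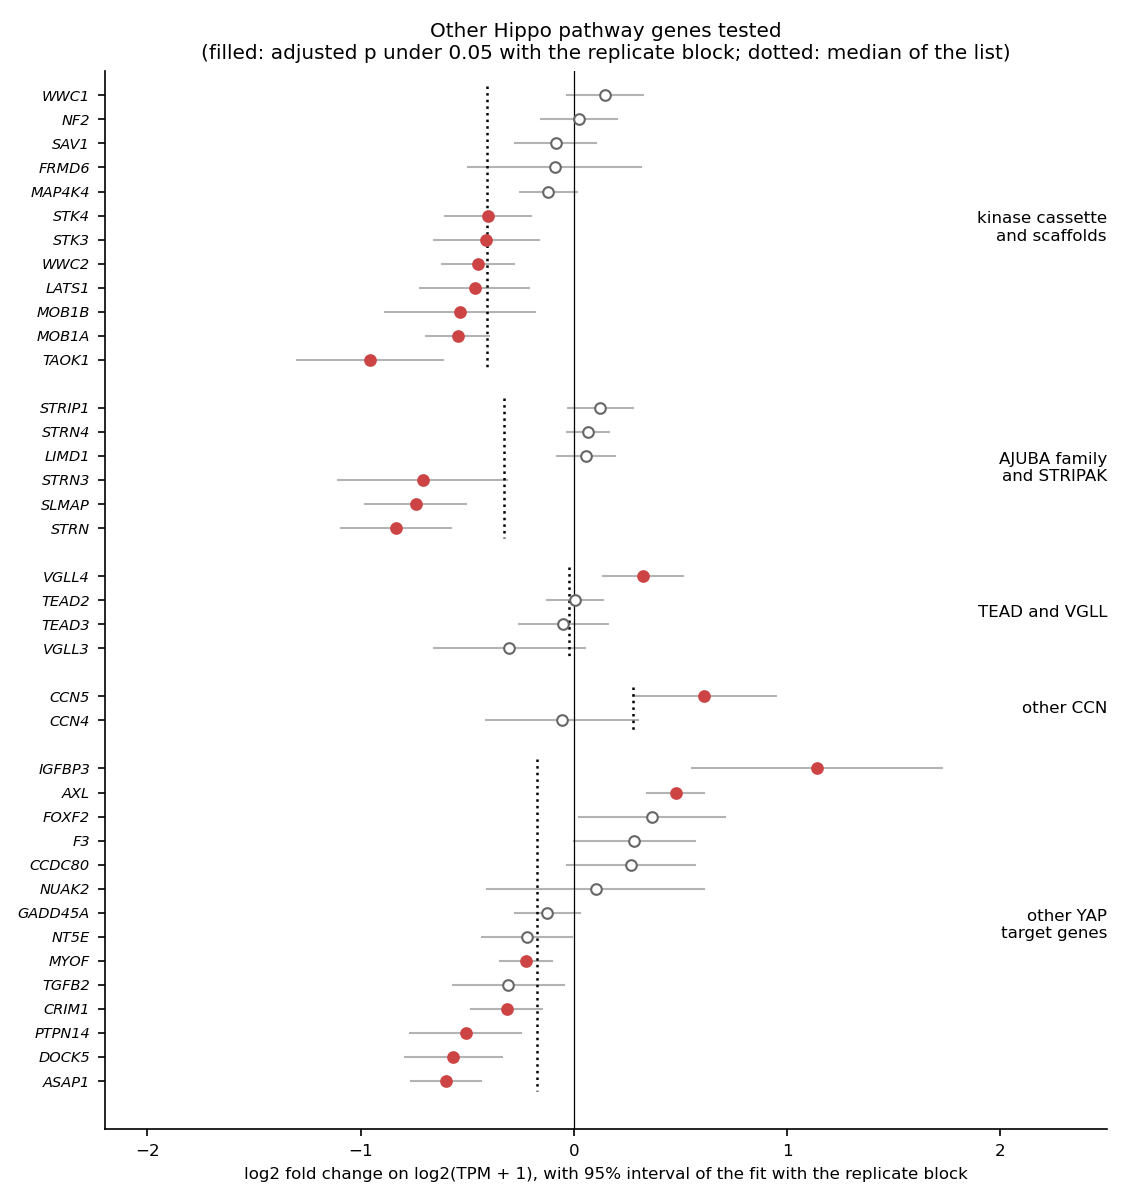
log2 fold change on log2(TPM + 1), knockdown against control, of the 38 other pathway genes tested, grouped by list, with the 95% interval of the limma fit with the replicate block; filled points have an adjusted p under 0.05 in that fit, and dotted lines give the median of each list. The kinase cassette and STRIPAK lists have their called genes left of 0, and the YAP target list has called genes on both sides.

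Over the 6 libraries, the profile of CCN1 was most like those of H2AC20, NDUFB2 and ZNHIT2 (Pearson's r of log2(TPM + 1) 0.994, 0.993 and 0.993). With 6 libraries and 13980 genes such values are a description only, and the points share the replicate effect. Among the other members, ANKRD1 and AMOTL2 had an r with CCN1 of 0.96 each and CCN2 one of 0.85. TEAD1 had one of -0.20 and YAP1 one of 0.07.

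The study also examined the miRNA miR-345-5p, so the members were searched for its seed match. The mature miRNA from RefSeq is shown with its seed, bases 2 to 8, in capitals.
hsa-miR-345-5p: gCUGACUCcuaguccagggcuc
The match to this seed in an mRNA reads GAGTCAG. None of the 10 members held it in the coding sequence or the 3′ UTR of the longest transcript (0 of 10), while 22.2% of the 11803 genes tested with a coding transcript did, 12.7% in the coding sequence and 10.96% in the 3′ UTR. Other transcripts and weaker matches were not searched.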

How the data were processed

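RNA of HCCLM3-SR cells was sequenced by the authors as PolyA-Seq, 3 libraries for si-cDCBLD2 and 3 for siCTRL, and groups and replicate numbers came from the sample titles. The deposited values are TPM per gene, 1 column per library, each summing to 1000000. The submitters' processing notes name fastp 0.20.1, HISAT2 2.1.0, StringTie 2.0 and hg38. The annotation, the counting tool and the strand setting are not given in the sources used here. Genes that share reads with overlapping genes are therefore uncertain.

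The test took the 13980 genes averaging 1 TPM or more. Their log2(TPM + 1) values were fitted in limma 3.58.1 (R 4.3.3) with trend, and p-values were adjusted by Benjamini-Hochberg. A gene was called at an adjusted p under 0.05. On the log2(TPM + 1) scale the change of low genes is understated. Same-numbered libraries had deviations correlated by 0.56, 0.34 and 0.36, while differently numbered libraries ranged from -0.45 to 0.25, with 0.21 and 0.25 between replicates 2 and 3. The replicate number was used as a block beside the main design, which has none because the paper names none. What a replicate number marks is not stated in the labels.

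TPM carries no depth. Reads were recovered as the smallest whole numbers in the ratio of each gene's values (numba 0.67.0), for 100% of the 17285 genes above 0 in all libraries. With library factors moved at random by up to 10%, the share recovered under 2000 reads fell from 90.3% to 0%. These reads are lower bounds.

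GC content and length came from the longest basic transcript of GENCODE release 29 (GRCh38), for 94.1% of genes tested. Each library's loess trend (span 0.5) was removed and its mean kept. The members and gene lists were chosen with earlier results of these data known. The genes named are the members, DCBLD2, up to 4 called genes per direction and the most abundant gene of each list, and the 3 genes most like CCN1. COL1A1, COL3A1 and the cell type markers come from a fixed list, and those given were chosen after their values were seen. Single ratios were tested with exact two-sided permutation (scipy 1.17.1). Alternatives were another scaling, filter and pseudocount, the block, GC-content and length offsets and leaving out libraries. Limma-voom on recovered reads, leaving out replicate pair 1 and the GC-content offset of the ratios were chosen after seeing the data.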

Additional observations from a re-analysis of the deposited data

How the results depend on the processing

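Without a block, 0 members were called higher and 1 lower, and 0 other pathway genes in either direction. The number of members called lower was 0 with upper-quartile scaling, without the mean filter and with the transcript-length offset. Upper-quartile scaling and the transcript-length offset each called 1 other pathway gene higher, and limma-voom on recovered reads called 2. The replicate block gave 4 members higher and 3 lower, and 4 other genes higher and 15 lower. The GC-content offset with the replicate block gave 3, 3, 4 and 15 in the same order. Limma-voom with the replicate block gave 4, 3, 11 and 14. Leaving out replicate pair 1 gave 2, 3, 4 and 16, without ANKRD1 and AJUBA among the higher members. Much of the whole table moved in these fits, so their counts are not read as results about the pathway. At an unadjusted p under 0.05, limma-voom with the replicate block had 7 members, beside 7083 of 15007 genes. The fit without replicate pair 1 had 6 members, beside 6612 of 13980 genes. Leaving out single libraries, the counts ranged from 0 to 0 members higher, from 0 to 3 lower, from 0 to 3 other genes higher and from 0 to 13 lower. Only the fit without knockdown replicate 1 called any, with 3 members lower (YAP1, WWTR1 and TEAD1). At an unadjusted p under 0.05 it had 4 members, beside 5715 of 13980 genes, and its counts are read in the same way. The other 5 such fits called 0 of all genes tested, with 2161 to 2803 at an unadjusted p under 0.05. The cause was not tested. Beyond the changes given here and in the text above, the block changed no other call of a member.

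Upper-quartile scaling moved the calls over all genes from 35 higher and 88 lower to 59 and 62, and limma-voom to 193 and 259. In size, the 10 log2 fold changes kept their sign under all 17 fits except that of CCN2, which was -0.037 without knockdown replicate 1 and -0.032 without replicate pair 1, and up to 0.307 with other libraries left out. The log2 difference of the WWTR1 to YAP1 ratio ranged from -0.085 to 0.127 with each library left out, with -0.041 without knockdown replicate 3 and -0.052 without control replicate 1. That of TEAD4 to TEAD1 ranged from 0.827 to 1.19 and that of CCN2 to CCN1 from -0.64 to -0.22. Depth limits ANKRD1 most, at 23 reads in its lowest library.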
